A study of Mus musculus with 6 samples.

Results

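Haem is made and broken down in the liver by a short series of enzymes, and 9 genes of that pathway were followed here: Alas1, Alad, Uros, Urod, Cpox, Ppox and Fech for synthesis, and Hmox1 and Blvrb for breakdown. They were chosen by name, with earlier results of these data known. Every probe that the array files assign to them was taken, and each probe was treated separately. This gave 12 probes for 9 of the 34832 gene names on the array. RNA came from the whole liver of mice of the inbred strain C57BL6/J. By mouth, 3 mice were given 250 mg/kg of CBZ, a name the labels do not spell out, and 3 were given the solvent dimethyl sulfoxide (DMSO). Livers were sampled 2 h after the dose. The labels name no transgene or deletion in either group, and no age was taken from them. Each mouse had its own 1-colour Agilent array, and with 3 arrays a group precision is limited throughout.

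Haem is an iron-containing ring that proteins such as haemoglobin, catalase and the cytochrome P450 enzymes need in order to work. Synthesis starts in the mitochondrion, where 5-aminolevulinate synthase joins glycine to succinyl-CoA, passes through the cytosol, and ends back in the mitochondrion. In liver the first enzyme, encoded by Alas1, is the step that limits the rate, and its gene is known to be repressed by haem and switched on by many drugs. Haem oxygenase opens the ring to give biliverdin, iron and carbon monoxide, and biliverdin reductases turn biliverdin into bilirubin or a related pigment.

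Alas1, Uros and Hmox1 each had a pair of probes at different places of the gene, and for Alas1 and Hmox1 the pair was set against each other. The last 30 bases of these probes are therefore shown, 5′ to 3′, as the array files give them, with any AATAAA in capitals. AATAAA is the common signal for cutting and polyadenylating a transcript, and here it is a match of letters, not a shown site.
Alas1 probe 1: agaattgtctttatatgtgaAATAAAttat
Alas1 probe 2: tgtatttgggtcttgctctttttatacaat
Uros probe 1: agagcagtttgAATAAAacatccaccagca
Uros probe 2: gctatgtgtgaagtagatttagtcatcata
Hmox1 probe 1: gccccactctacttccctgaggagctgcac
Hmox1 probe 2: cgactgctgtcccccagtgccatggccact
On the mouse build mm9, the build of the array design, Alas1 probe 1 lies at chr9:106136284-106136343 and probe 2 at chr9:106135796-106135855, both on the minus strand. Probe 2 is thus 488 bases further downstream, and the files place it 488 bases further along the transcript as well. AATAAA begins at base 51 of Alas1 probe 1 and does not occur in probe 2. Read on the strand as printed, the same letters occur in 5602 of the 55681 probes (10.1%) and in 4 of the 12 probes of these genes. Uros probe 1 lies at chr7:140883818-140883876 and probe 2 at chr7:140878069-140878128, both on the minus strand. Hmox1 probe 1 lies at chr8:77620797-77620856 and probe 2 at chr8:77624207-77624266, both on the plus strand. Exon and UTR annotation of this build was not used here.

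The arrays were alike in quality. The share of spots well above background ran from 42.6% to 45.8%, the 75th percentile of the signal ran from 158 to 191 intensity units, and 0 spots were saturated. Across probes, which are not independent, the r of 2 arrays was 0.988 to 0.993. All arrays lay on 1 slide, the DMSO arrays and CBZ replicate 1 in row 1 and CBZ replicates 2 and 3 in row 2. With the row as a covariate, the group difference is therefore that of CBZ replicate 1 alone against the DMSO mice. Levels below are processed signals as multiples of the array's own 75th percentile. A level compares mice for 1 probe. A ratio of probes within an array is used only to compare that ratio between mice, since the levels of different probes have no common scale. Hepatocyte markers such as albumin were measured for 8 of 8 listed genes, with a mean log2 level of 9.26 to 9.36 in DMSO mice and 9.26 to 9.44 in CBZ mice. In whole liver, a lower signal from fewer cells of a type and one from less RNA per cell cannot be told apart.

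Of the 9 genes, Alas1 alone had a probe past the threshold, and this was the downstream probe. Probe 2 read 7.17, 4.95 and 5.20 under DMSO and 22.0, 22.5 and 24.8 under CBZ. Every CBZ mouse lay above every DMSO mouse, and the nearest values of the groups were 7.17 and 22.0. Group means were 5.77 ± 1.22 and 23.1 ± 1.52 (SD, n = 3 each). The log2 fold change, CBZ minus DMSO, was 2.02 ± 0.17 (SE), a 4.05-fold rise with a 95% interval of 3.12 to 5.27, and the limma adjusted p was 0.0082. This was the probe with rank 2 by p among 22377 tested.

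Alas1 probe 1 was also higher in every CBZ mouse, without passing the test. It read 322, 269.5 and 179 under DMSO and 479, 537 and 481 under CBZ. The groups did not overlap, and DMSO replicate 3 was the lowest of all. Means were 257 ± 72.0 and 499 ± 32.8 (SD, n = 3 each), a 2.00-fold difference with a 95% interval of 1.44 to 2.78. On the log2 scale this was 1.00 ± 0.21 (SE), with an unadjusted p of 0.0011 and a limma adjusted p of 0.17, so the probe did not pass the threshold of 0.05. Spread within the DMSO group was wide for this probe, with a log2 SD of 0.43 against 0.093 in the CBZ group.

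Of the 11 probes of these genes that were tested, 1 passed, against 0.0626% of all probes tested in either direction. Higher calls alone made up 0.0536% and lower calls 0.00894% of all probes. The groups did not overlap with CBZ higher for 2 of the 11, both of them Alas1, against 6.26% of all probes. None of the 11 had CBZ lower without overlap, against 7% of all probes. The genes were chosen with earlier results of these data known, so these comparisons are a description and not independent evidence. In simulated data with the spread of these arrays, the same test called 62.1% of probes changed 2-fold and 94.4% of those changed 4-fold. Those data held many more changed probes than the 14 called here. That eases the adjusted threshold, so these shares can be too high for the real comparison.

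**Figure D1:**
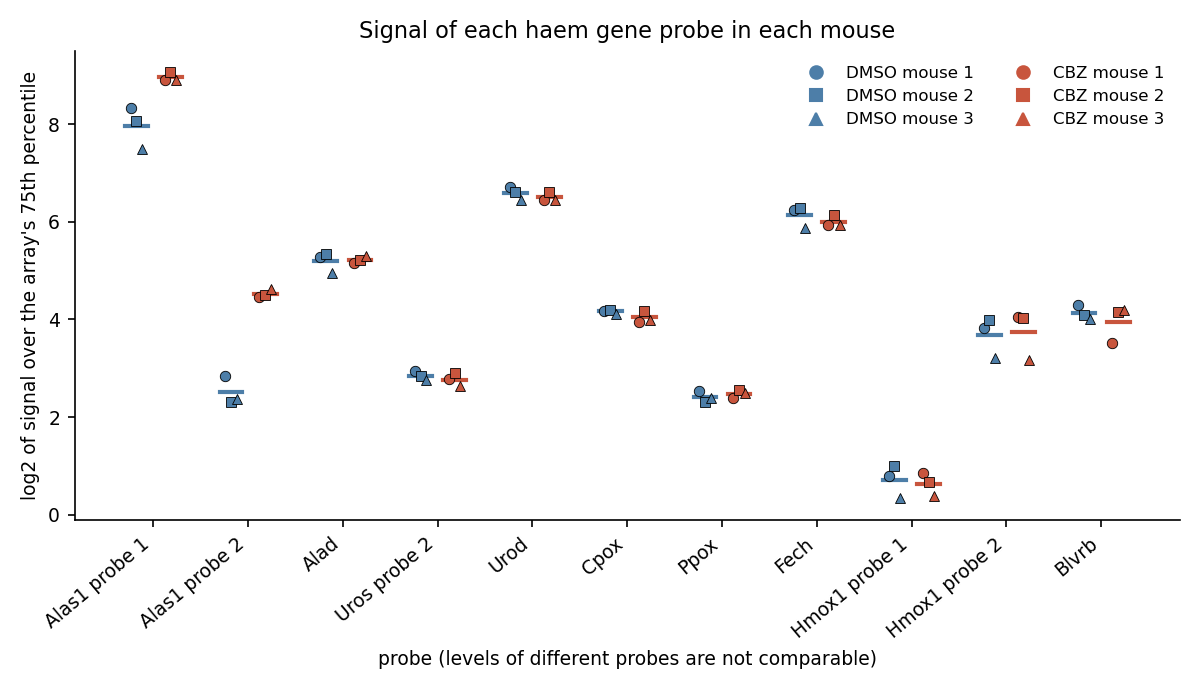
Log2 signal over the array's 75th percentile (vertical axis) for each of the 11 tested probes (horizontal axis), with DMSO mice in blue, CBZ mice in red, a symbol per replicate number and a short line at the group mean. The groups separate at both Alas1 probes and overlap at the other 9, and heights of different probes are not comparable.

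The call for Alas1 probe 2 changed with the setting. Its log2 fold change stayed between 1.91 and 2.19 under the 16 other settings tried, but the limma adjusted p ranged from 2.4e-08 to 0.43 and passed in 11 of them. The 2.4e-08 came from median scaling and from the authors' table, which are nearly the same data and both count among the 11. In these fits limma took 1 variance for all probes. Without DMSO replicate 3 the change was 1.95 with a limma adjusted p of 0.11, and without CBZ replicate 2 it was 2.04 with 0.11. Without CBZ replicate 3 it was 1.97 with 0.058. The unadjusted limma p of Alas1 probe 2 in these fits was 1.5e-05, 1.9e-05 and 1.8e-05. Over all probes, 0 passed without DMSO replicate 3, 0 without CBZ replicate 2 and 1 without CBZ replicate 3. With the row on the slide as a covariate the change was 1.95, that of CBZ replicate 1 alone against the DMSO mice. With no filter on dim probes the change was 2.02 and the limma adjusted p 0.43. Probe 1 ranged from 0.76, without DMSO replicate 3, to 1.18, and passed in 1 setting, normexp background correction, with 0.98 and a limma adjusted p of 0.020.

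**Figure D2:**
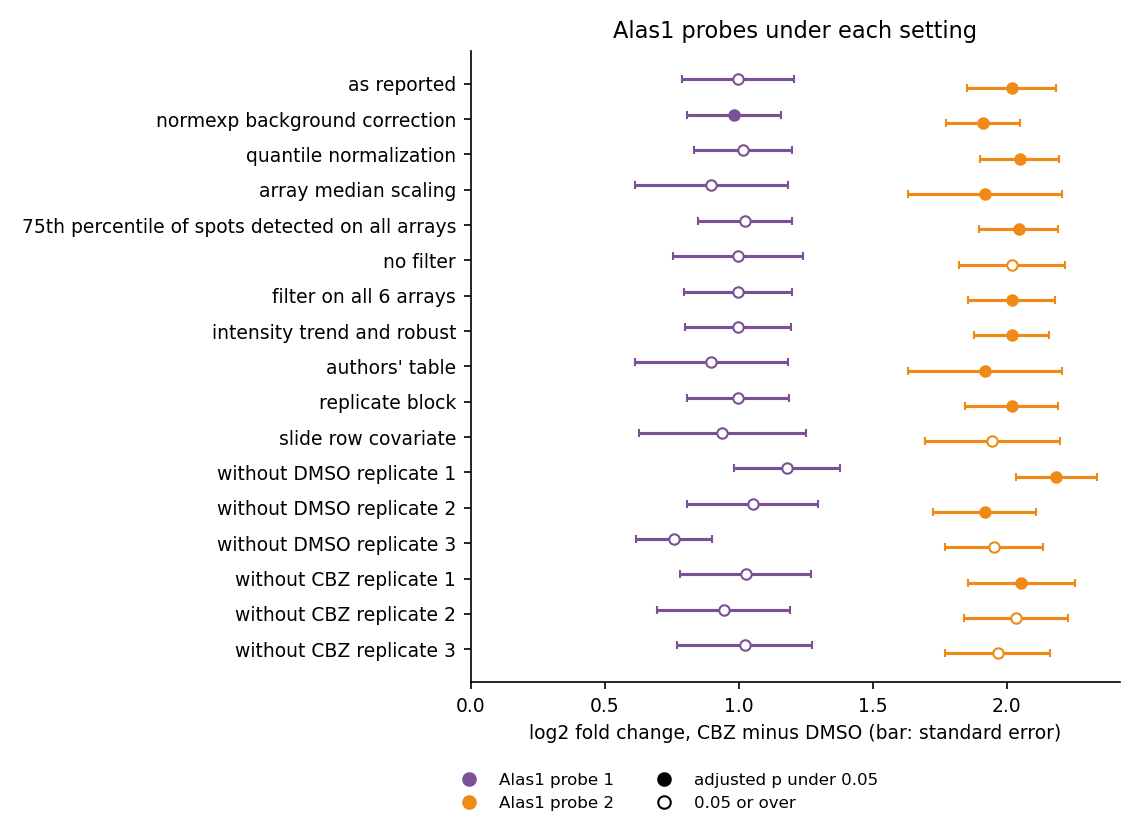
Log2 fold change of both Alas1 probes, CBZ minus DMSO, under each processing setting, with the standard error as a bar; filled points have an adjusted p under 0.05. Probe 2 lies near 2 throughout and probe 1 near 1, and which points are filled changes with the setting.

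Because both Alas1 probes were read on the same arrays, their difference could be compared directly. This comparison was chosen with the Alas1 probes already known to differ in these data. Its p-value is therefore a description and not independent evidence. Within an array, the signal of probe 1 over that of probe 2 was 44.8, 54.4 and 34.5 under DMSO and 21.8, 23.8 and 19.4 under CBZ. All ratios of the CBZ mice lay below all of the DMSO mice, so the groups did not overlap in the ratio. The log2 difference, probe 2 minus probe 1, was 1.02 ± 0.21 (SE) greater in the CBZ mice. An exact permutation test over the arrays, two-sided, gave p = 0.10, the smallest that 3 against 3 allows, and 0.20 after Benjamini-Hochberg adjustment over the 2 probe pairs compared. The difference stayed between 0.87 and 1.19 when each mouse was left out in turn. How much of the signal of each probe came from which transcript end was not tested. Whether signal stays proportional to RNA at the brightness of each probe was not tested either. Probe 1 read 179 to 537 and probe 2 read 4.95 to 24.8.

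**Figure D3:**
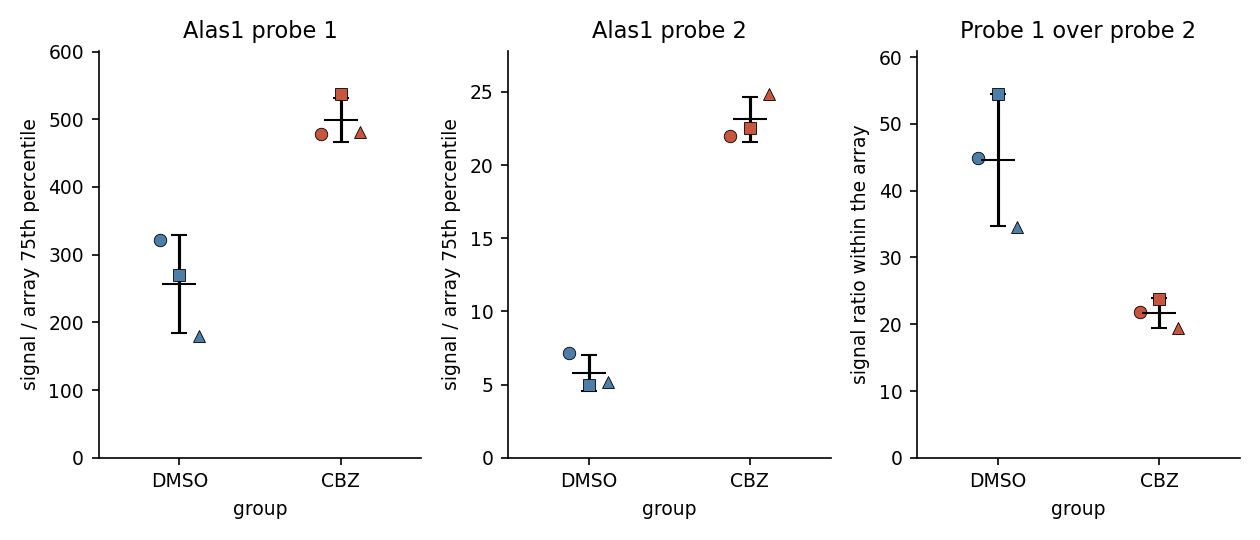
Signal of Alas1 probe 1 and of probe 2, each over the array's 75th percentile, and the ratio of both within an array, for the DMSO mice (blue) and the CBZ mice (red); points are mice, and lines with bars are the mean ± SD of 3. Both probes are higher in every CBZ mouse, and the ratio is lower in every CBZ mouse.

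The enzymes that act in the cytosol did not pass the test. Alad, the enzyme that joins a pair of 5-aminolevulinate molecules into porphobilinogen, read 39.1, 40.5 and 30.7 under DMSO and 35.8, 37.1 and 39.2 under CBZ. The groups overlapped, and the log2 fold change was 0.03 ± 0.15 (SE; 95% interval -0.30 to 0.37; limma adjusted p 0.99). Its sign turned to -0.07 when arrays were scaled by their median. Urod, which removes carboxyl groups from uroporphyrinogen, read 104, 97.9 and 86.8 under DMSO and 87.9, 97.7 and 87.5 under CBZ. Its log2 fold change was -0.08 ± 0.13 (SE; 95% interval -0.38 to 0.22; limma adjusted p 0.96), with overlapping groups. The probes lie at chr4:62172559-62172618 for Alad and chr4:116662850-116662909 for Urod.

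Uros, whose enzyme closes the ring to uroporphyrinogen III, was readable at 1 of its probes. Probe 1, which the files tie to a cDNA clone, was not well above background on any of the 6 arrays, with 0.161 to 0.235 under DMSO and 0.157 to 0.240 under CBZ. It was left out of the test, and no fold is given. Probe 2 read 7.69, 7.17 and 6.78 under DMSO and 6.83, 7.44 and 6.26 under CBZ. These groups overlapped, with a log2 fold change of -0.08 ± 0.13 (SE; 95% interval -0.38 to 0.22; limma adjusted p 0.96).

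The last steps run in the mitochondrion, and their genes did not pass either. Cpox, the oxidase that turns coproporphyrinogen into protoporphyrinogen, read 18.2, 18.3 and 17.3 under DMSO and 15.5, 17.98 and 15.98 under CBZ. Its groups overlapped, since CBZ replicate 2 lay within the DMSO range, and the log2 fold change was -0.12 ± 0.12 (SE; 95% interval -0.41 to 0.16; limma adjusted p 0.91). Ppox, which forms protoporphyrin, read 5.78, 4.97 and 5.21 under DMSO and 5.26, 5.86 and 5.63 under CBZ. The log2 fold change of Ppox was 0.07 ± 0.13 (SE; 95% interval -0.22 to 0.36; limma adjusted p 0.96), and its sign turned to -0.03 when arrays were scaled by their median. Fech, ferrochelatase, inserts the iron that completes haem. It read 76.2, 77.5 and 59.0 under DMSO and 61.3, 70.1 and 61.4 under CBZ, so that all CBZ values lay inside the DMSO range. The log2 fold change of Fech was -0.13 ± 0.15 (SE; 95% interval -0.48 to 0.21; limma adjusted p 0.92). The probes lie at chr16:58680403-58680465 for Cpox, chr1:173207452-173207629 for Ppox and chr18:64616928-64616987 for Fech. The Ppox probe spans 178 bases of the genome.

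The synthesis genes after Alas1 were also averaged. The mean log2 level of their 6 tested probes differed by -0.05 between the groups. Set against that mean within each array, Alas1 probe 1 was 1.05 and probe 2 was 2.07 higher in log2 in the CBZ mice. An exact permutation test gave p = 0.10 for each, the smallest possible with 3 against 3. This contrast was chosen after the values had been seen.

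**Figure D4:**
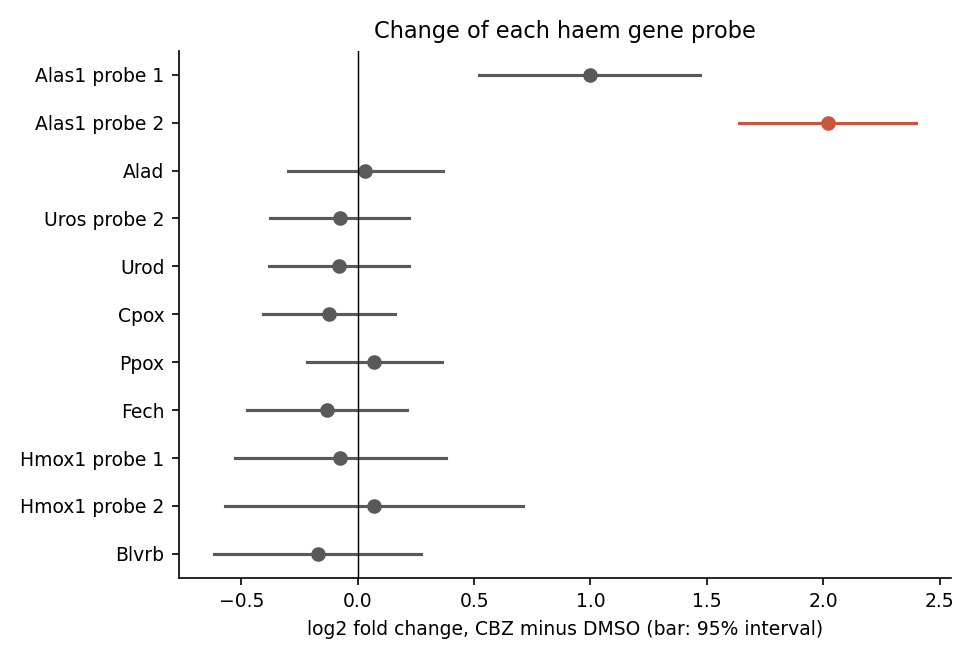
Log2 fold change of each tested probe, CBZ minus DMSO, as a point with its 95% interval; red marks an adjusted p under 0.05. Alas1 probe 2 is the one red point at 2.02, both Alas1 intervals lie above 0, and the intervals of the other 9 probes include 0.

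Neither breakdown gene passed. Hmox1 encodes the inducible haem oxygenase, a gene that many stresses switch on. Its probe 2 read 14.3, 15.97 and 9.25 under DMSO and 16.6, 16.4 and 8.996 under CBZ. The groups overlapped almost completely, and replicate 3 was the lowest in both. The log2 fold change was 0.07 ± 0.28 (SE; 95% interval -0.57 to 0.71; limma adjusted p 0.99). Hmox1 probe 1 read 1.73, 2.00 and 1.26 under DMSO and 1.80, 1.59 and 1.30 under CBZ. Replicate 3 was again the lowest of each group, and the log2 fold change of probe 1 was -0.08 ± 0.20 (SE; 95% interval -0.53 to 0.38; limma adjusted p 0.98). The sign of probe 2 turned to -0.03 under median scaling and to -0.17 without DMSO replicate 3. The log2 difference between the Hmox1 probes was 0.15 ± 0.18 (SE) greater in the CBZ mice, with an exact permutation p of 0.50.

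Blvrb, a reductase that acts on biliverdin and flavins, read 19.5, 17.1 and 16.01 under DMSO and 11.5, 17.8 and 18.3 under CBZ. CBZ replicate 1 was the lowest of the 6, while CBZ replicates 2 and 3 lay inside the DMSO range. The log2 fold change was -0.17 ± 0.20 (SE; 95% interval -0.62 to 0.27; limma adjusted p 0.92). It was 0.04 without CBZ replicate 1. With the row on the slide as a covariate it was -0.60, which sets CBZ replicate 1 alone against the DMSO mice. The probe lies at chr7:28250944-28251000.

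Across the 9 tested probes of genes other than Alas1, 3 were higher and 6 lower in the CBZ mice, with a median log2 fold change of -0.08 against -0.0060 for all probes. None had an unadjusted p under 0.05, against 9.39% of all probes tested, and the lowest was 0.35. These intervals do not show that the genes were alike in both groups. The widest bounds among them were -0.62 and 0.71, which allow a 1.53-fold lower or a 1.64-fold higher level. The log2 SD within a group ran from 0.044 to 0.50 for these probes, and the median over all probes was 0.18 in DMSO mice and 0.16 in CBZ mice.

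Enzymes of the pathway outside the 9 genes were read from the same fit, a gene by its brightest probe, and 0 of 4 passed, with 1 at an unadjusted p under 0.05. In all, 9 of 17078 genes (0.0527%) passed. Alas2, the form of the first enzyme found in red cell precursors, read 58.5, 73.4 and 47.5 under DMSO and 39.6, 44.8 and 43.9 under CBZ. Every CBZ value was below every DMSO value, and the log2 fold change was -0.46 ± 0.17 (SE; limma adjusted p 0.44). Beside it, the summed level of the 6 measured red cell markers, which include Alas2 itself and globin genes, was 876 to 1403 in DMSO mice and 825 to 1151 in CBZ mice. Of these markers 4 were lower in the CBZ mice, and Ahsp and Gata1 were not well above background on any array. Their part in the Alas2 values was not tested. Hmox2, the constitutive haem oxygenase, and Blvra, the main biliverdin reductase, had log2 fold changes of -0.02 ± 0.15 and -0.05 ± 0.16 (SE). Their dimmer probes were at -0.008 ± 0.15 for Hmox2 and, with the opposite sign, at 0.22 ± 0.26 (SE) for Blvra.

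Genes that carry haem and its precursors, or supply iron-sulfur clusters, were measured for 25 of 29 listed. None passed and 0 had an unadjusted p under 0.05 in limma, 7 were higher and 18 lower, and the median log2 fold change was -0.09 against -0.0042 over all genes. The number higher was 1 with median scaling, 3 with normexp and 9 with detected-spot scaling. The list medians were then -0.19, -0.09 and -0.07, beside -0.11, -0.0074 and 0.020 for all probes. The smallest p-values belonged to Mfsd7b at -0.44 ± 0.23, Abcg2, an exporter that also carries porphyrins, at -0.25 ± 0.14, and Slc25a38, a mitochondrial glycine carrier, at -0.22 ± 0.13 (SE). Mfsd7b was dim, with 0.384, 0.306 and 0.312 in DMSO mice and 0.169, 0.313 and 0.279 in CBZ mice. Its groups overlapped, and CBZ replicate 1 was the lowest of all.

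Of the genes that sense haem or act on Alas1, 23 of 24 were measured, none passed and 0 had an unadjusted p under 0.05, with 9 higher, 14 lower and a median of -0.06. Nr1d1, a haem-binding nuclear receptor of the clock, stood at -0.50 ± 0.22 and Bach1, a repressor that haem inactivates, at -0.35 ± 0.16 (SE). Nfe2l2, which encodes NRF2, stood at -0.39 ± 0.18 (SE). The drug-sensing receptors Nr1i3 (CAR) and Nr1i2 (PXR) were at 0.29 ± 0.15 and 0.27 ± 0.16, and the coactivator Ppargc1a at 0.14 ± 0.14 (SE). The limma adjusted p of these genes lay between 0.54 and 0.91.

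Of the iron storage and transport genes, 20 of 25 listed names were measured, none passed and 2 had an unadjusted p under 0.05. Of these, 8 were higher and 12 lower, with a median log2 fold change of -0.06. Slc11a2, an iron importer, was lower in every CBZ mouse, with 0.673, 0.7005 and 0.698 in DMSO mice and 0.464, 0.4998 and 0.411 in CBZ mice. Its log2 fold change was -0.60 ± 0.13 (SE; limma adjusted p 0.19). Slc39a14, another metal importer, was at 0.40 ± 0.13 and Ftl1, a ferritin chain, at 0.22 ± 0.15 (SE). Genes of bilirubin handling and haem scavenging were measured for 13 of 16, with 5 higher, 8 lower, none past the threshold, 0 at an unadjusted p under 0.05 and a median of -0.05. Slco1a1, Gsta2 and Slco1b2 were at -0.31 ± 0.17, -0.32 ± 0.21 and -0.21 ± 0.14 (SE).

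Cytochrome P450 enzymes, which carry haem, and their electron donors were measured for 39 of 43 genes. Past the threshold, 1 was higher and none lower, and regardless of it 20 were higher and 19 lower. An unadjusted p under 0.05 was found for 9 of the 39, against 9.39% of all probes tested. Those 9 include 3 that were lower, Cyp7b1 at -1.08 ± 0.33, Cyp4a12a at -0.73 ± 0.20 and Cyp2j5 at -0.33 ± 0.14 (SE), which are named after their values were seen. The rest of the 9 were higher in the CBZ mice, Cyp2c55 and Cyp2b10 among them. The median log2 fold change of the list was 0.03, which turned to -0.07 when arrays were scaled by their median and to -0.01 with normexp. Cyp2c55, a fatty acid and drug hydroxylase, rose from 1.89, 1.88 and 1.56 to 6.31, 5.17 and 4.16, 2.91-fold (log2 1.54 ± 0.18 SE; limma adjusted p 0.033). No list gene passed when any mouse but CBZ replicate 1 was left out. In those fits calls over all probes were also few, at most 3 higher and 2 lower, against 12 and 2 as reported. The Cyp2c55 call was also lost with quantile scaling, with detected-spot scaling and with no filter on dim probes. Under each of these, 0 list genes passed. Cyp2b10, the classic target of CAR, read 81.2, 28.5 and 52.0 in DMSO mice and 509.9, 486 and 199 in CBZ mice. It did not overlap between groups and was 7.44-fold higher, yet its spread was wide and its limma adjusted p was 0.066 (log2 2.89 ± 0.44 SE). Cyp3a11, a target of PXR, was at 0.10 ± 0.12 and Por, the electron donor of these enzymes, at -0.02 ± 0.15 (SE).

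NRF2 and BACH1 targets, the group to which Hmox1 belongs, were measured for 20 of 22 genes. None passed, and 3 had an unadjusted p under 0.05. In this list 11 were higher and 9 lower, with a median of 0.04 that turned to -0.06 under median scaling. Trib3, better known as a gene of the integrated stress response, read 3.73, 2.71 and 4.45 in DMSO mice and 7.88, 8.46 and 9.58 in CBZ mice (log2 1.28 ± 0.19 SE; limma adjusted p 0.066). Osgin1 was at -0.68 ± 0.21 and Srxn1 at 0.33 ± 0.14 (SE). Other haem proteins were measured for 18 of 23 listed names, with 10 higher, 8 lower, none past the threshold and 3 at an unadjusted p under 0.05. Their median of 0.01 turned to -0.09 under median scaling and to -0.01 with normexp. The list holds Hsd17b7 and Uqcrc1, which are not haem proteins, and its counts include both. Hsd17b7 was at 0.42 ± 0.14, the nitric oxide synthase Nos3 at 0.44 ± 0.17 and Cyb561 at -0.50 ± 0.22 (SE). Over the 8 lists, 159 of 183 listed names were measured, 1 passed, and the median was -0.03. Some names are an older and a newer symbol of the same gene, such as Hfe2 and Hjv. The names not measured therefore overstate the genes not measured. An unadjusted p under 0.05 was found for 18 of the 159, 9 from the P450 list, against 9.39% of all probes. Median scaling moved the median of all probes to -0.11.

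**Figure D5:**
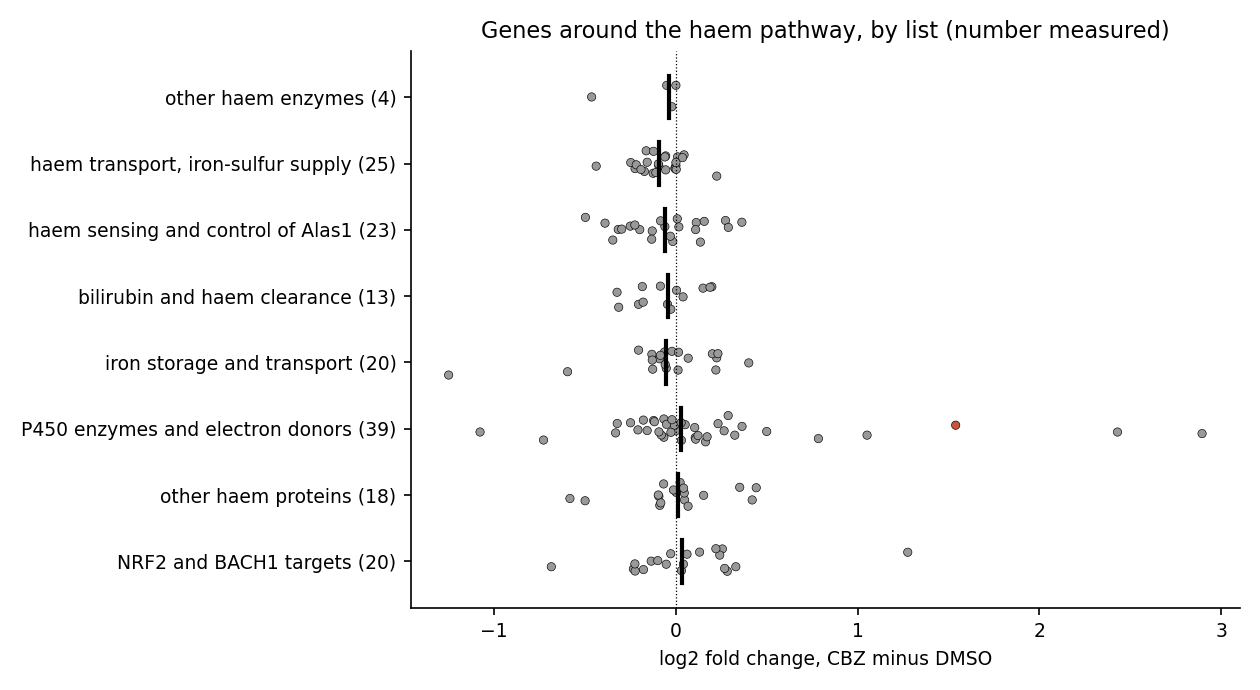
Log2 fold change, CBZ minus DMSO, of each measured gene in 8 lists of genes around the haem pathway; points are genes, vertical bars are list medians, and the red point is the gene with an adjusted p under 0.05. Medians lie between -0.09 and 0.04, the red point is Cyp2c55 at 1.54, and the point furthest to the right is Cyp2b10 at 2.89.

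Markers of other liver cell types were read beside these genes. Kupffer cell markers were higher in the CBZ mice for 9 of 11 measured genes, with a median log2 fold change of 0.18. For these markers median scaling gave 6 of 11 and a median of 0.08, beside -0.11 for all probes. Their summed level was 148 to 323 in DMSO mice and 194 to 235 in CBZ mice, so that the groups overlapped. Stellate cell markers were higher for 6 of 7, with a median of 0.32 and sums of 103 to 117 and 88.8 to 153. Median scaling gave 5 of 7 and a median of 0.22 for them. Their mean log2 level was 0.886 to 0.943 in DMSO mice and 0.943 to 1.47 in CBZ mice, where CBZ replicate 3 was level with the highest DMSO mouse. The 3 measured cholangiocyte markers had a median of 0.31, with 2 higher and 1 lower. Summed levels also overlapped for sinusoidal endothelium (67.4 to 104 and 74.5 to 98.8), neutrophils (3.19 to 6.35 and 4.49 to 4.86), lymphocytes (5.85 to 6.46 and 6.13 to 6.48) and cholangiocytes (2.17 to 3.32 and 2.99 to 4.08). No marker gene passed, and 1 each of the red cell, stellate and cholangiocyte markers had an unadjusted p under 0.05 in limma. Their part in the values of Alas1 was not tested.

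Probes whose signal ran most like that of Alas1 probe 2 over the 6 arrays were found by Pearson's r, given as a description of arrays that share their groups. The 5 named probes with the highest r belong to 4 genes, Esf1 (r = 0.994), Klhl25 (0.994 and 0.991), Csf1 (0.993) and Trim14 (0.991). Their log2 fold changes ranged from 0.17 for Esf1 to 1.69 for Klhl25, so a high r did not mean a change of the same size. Alas1 probe 1 had an r of 0.92 with probe 2, and 95 other probes had an r over 0.95.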

How the data were processed

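Whole-liver RNA of 6 mice, 3 given CBZ and 3 given DMSO, was read from 1-colour Agilent arrays. The deposited scanner files hold each spot's intensity, background-subtracted by Agilent Feature Extraction 10.7.3.1 (protocol GE1_107_Sep09), per the file headers. The authors' deposited table holds a ratio of that intensity to the array median, and served as an alternative. Coordinates are those of the array design (mm9).

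Each array's 75th percentile over 59305 non-control spots was subtracted from its log2 processed intensities. Outlier spots (114 to 126 per array) were left out, and a probe's spots were averaged. Probes well above background on every array of either group were kept (22377 of 55681). R 4.3.3 with limma 3.58.1 compared the groups (lmFit, then eBayes, two-sided), with Benjamini-Hochberg adjustment over all kept probes and a threshold of 0.05. Levels are linear and fold changes are differences of mean log2 values. Limma p-values measure the spread between these mice, with the variance of each probe drawn towards that of the other probes. Under median scaling and for the authors' table, limma took 1 variance for all probes.

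Members and gene lists were chosen with earlier results of these data known. Named genes were every member probe, and from each list those past the threshold or else up to 3 of smallest p, with Cyp2b10, Cyp3a11, Por, Nr1i3, Nr1i2, Ppargc1a and Nr1d1 in any case. Alternatives were normexp correction (offset 50), quantile, median and detected-spot scaling, other filters, an intensity trend with robust eBayes, the slide row, the replicate block, an adjusted p under 0.10, and leaving out each mouse. The same replicate number did not pair samples (correlations of deviations -0.24, 0.016 and 0.18). On simulated data, 4.85% of calls of this comparison, over 22377 probes, were false. Values of 2 listed genes are not reported here.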

Additional observations from a re-analysis of the deposited data

How the results depend on the processing

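The number of haem gene probes past the threshold was 1 as reported, 2 with normexp, 0 with no filter, and 0 to 1 when each mouse was left out. The slide row as a covariate sets CBZ replicate 1 alone against the DMSO mice, so its changes are given without a count of calls. The count of list genes past the threshold, 1 as reported, was 4 with normexp, 0 with quantile scaling, 6 with median scaling, 0 with detected-spot scaling, 0 with no filter, 4 with a filter on all 6 arrays, 3 with a trend and robust variance, 6 with the authors' table, 2 with the replicate block and 0 to 1 without single mice. With the replicate block, Alas1 probe 2 kept its log2 fold change of 2.02 with a limma adjusted p of 0.048, 1 haem gene probe passed, and the Alas1 probe difference stayed 1.02. The sign turned for Alad (-0.066 with median scaling and the authors' table, -0.028 with slide row, and -0.091 to 0.11, with -0.0019 among them, without single mice), Ppox (-0.029 with median scaling and the authors' table, -0.014 with slide row), Hmox1 probe 1 (0.14 with slide row, -0.26 to 0.070, with 0.05 among them, without single mice), Hmox1 probe 2 (-0.0295 with median scaling and the authors' table, -0.17 to 0.36, with -0.08 and -0.07 among them, without single mice) and Blvrb (-0.29 to 0.042 without single mice, above 0 without CBZ replicate 1). When each mouse was left out, the log2 fold change of Alas1 probe 2 ran from 1.92 to 2.19, that of probe 1 from 0.76 to 1.18, and the probe difference from 0.87 to 1.19 for Alas1 and 0.022 to 0.31 for Hmox1. Over all probes, calls higher and lower numbered 12 and 2 as reported, 75 and 54 with normexp and 62 and 71 with median scaling. They were 85 and 91 with a trend and robust variance, and 31 and 12 with a filter on all 6 arrays. Quantile scaling gave 5 and 2, detected-spot scaling 6 and 0, the replicate block 9 and 1, and no filter 0 and 0. Leaving out DMSO replicates 1, 2 and 3 in turn gave 3 and 1, 3 and 2, and 0 and 0. Leaving out CBZ replicates 1, 2 and 3 in turn gave 23 and 8, 0 and 0, and 1 and 0. The cause of these shifts was not tested. Dim probes are limited by signal over background, since an array's 75th percentile was 9.89 to 12.3 times its median local background.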

Other observations

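A probe without a gene name lies near Alas1, at chr9:106141167-106141226 on mm9, on the same strand and 4824 bases upstream of Alas1 probe 1. It was picked after its values were seen. It read 0.767, 0.957 and 1.13 under DMSO and 1.28, 1.43 and 1.17 under CBZ. Every CBZ value was above every DMSO value. The log2 fold change was 0.46 ± 0.17 (SE), and the limma adjusted p of 0.43 did not pass the threshold.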
